A study of Macaca mulatta with 449 samples.

Results

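Of the 22922 loci in the transcript assembly of the rhesus macaque brain, 600 (2.62%) had 10 or more distinct transcripts. A locus here is a group of transcripts on 1 strand that the assembly gave a single gene identifier, and the 600 were chosen by the number of transcript identifiers alone. They held 9944 of the 53661 assembled transcripts (18.5%). The study profiled RNA from 52 brain regions of 8 rhesus macaques (Macaca mulatta), 416 samples in all, after removal of ribosomal RNA and with a library kit that keeps the strand. Macaques 2, 3, 7 and 8 were males aged 10, 10, 4 and 3.8 years, and macaques 4, 6, 10 and 11 were females aged 3.2, 10, 5 and 9.8 years. The labels give no treatment. All samples, the midbrain included, went into the same assembly, so a transcript has a single set of coordinates and a single expression value, with no value per region, animal, sex or age. There is therefore no replicate, and loci are described by medians, quartiles and counts without a test.

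A gene can give several transcripts when RNA polymerase starts at different sites, when exons are joined in different ways, or when the transcript ends at different sites. Brain is known for a large variety of all these forms, among them skipped exons in proteins of the synapse and long 3′ ends in neurons. A long noncoding RNA (lncRNA) gene usually has few exons, and its transcripts often differ in where they begin and stop.

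The number of transcripts per locus fell off steeply. A single transcript made up 13017 loci (56.8%), and 9305 loci (40.6%) had 2 to 9. At the border of the group, 160 loci had 9 transcripts and 99 had 10. The median span was 49.3 kb with 9 transcripts and 44.8 kb with 10, the median number of exons was 7 in both, and the median of the locus' median spliced length was 4609.5 and 4799 bases. The median summed expression value was 7.63 with 9 transcripts and 13.2 with 10. The loci with 10 or more transcripts thus continued the loci just below the limit in structure. The 2 loci of highest expression value with 10 transcripts were G22915 (X:147763797-147770563, plus strand, 231.9) and G14252 (3:12776136-12799127, plus strand, 196.2). With 9 transcripts they were G14745 (3:72786248-72893187, minus strand, 513.3) and G6395 (14:11721454-11753174, plus strand, 374.1). Coordinates are those of the macaque build Mmul 8.0.1 throughout.

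**Figure D1:**
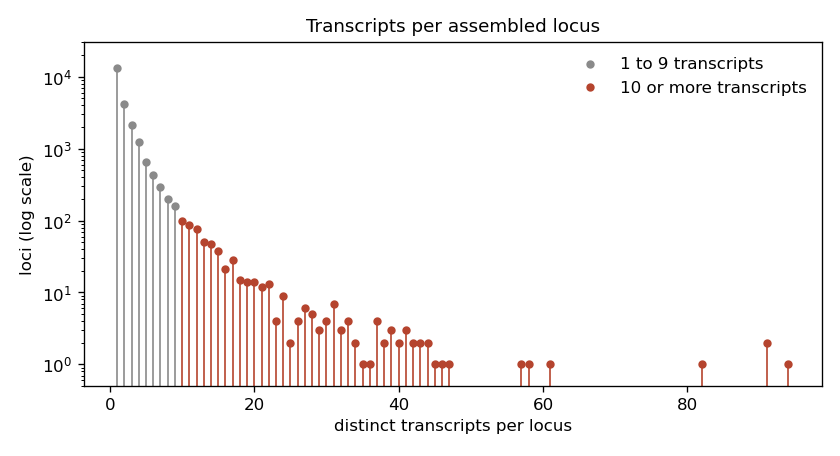
Number of loci (vertical, log scale) by number of distinct transcripts per locus (horizontal). Grey points are loci with 1 to 9 transcripts and red points the 600 loci with 10 or more, which reach 94 transcripts.

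Loci with 10 or more transcripts were wider than loci with 1 transcript. Their median span was 56.1 kb (quartiles 19.7 and 130.2 kb, range 1.24 to 2434 kb, n = 600), against 6.87 kb (quartiles 1.73 and 28.7 kb, n = 13017), a ratio of 8.16. The ratio was 3.28 against the loci with 1 transcript of 2 or more exons. Of the 600 loci, 559 (93.2%) were wider than the median locus with 1 transcript. A locus with many transcripts covers more ground by construction, so the transcript of the highest expression value in each locus, called the leading transcript below, was also compared. Leading transcripts spanned a median of 28.3 kb in loci with 10 or more transcripts, 4.12 times the median of loci with 1. Against loci with 2 to 9 transcripts the ratio of median spans was 1.63 for whole loci and 1.20 for leading transcripts.

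Transcripts had a greater spliced length and more exons than in loci with 1 transcript, but they did not have more exons than in loci with 2 to 9. The median spliced length over the 9944 transcripts was 4804 bases (quartiles 2845 and 7282 bases), 2.16 times the 2227 bases of loci with 1 transcript and 1.23 times the 3902 bases of loci with 2 to 9. The median transcript had 5 exons (quartiles 3 and 13), against 2 (quartiles 1 and 7) with 1 transcript and 7 (quartiles 3 and 14) with 2 to 9. Of the loci with 1 transcript, 4191 (32.2%) had a single exon. When only loci with 1 transcript of 2 or more exons were kept, their median was also 5 exons and the ratio was 1. The 937 single-exon transcripts (9.42%) of loci with 10 or more transcripts stayed in this comparison. The leading transcript had a median of 6 exons with 10 or more transcripts and 7 with 2 to 9. By number of transcripts, the median of the leading transcript rose from 2 exons at 1 transcript to 8 at 4 or 5, and it was 5 at 15 to 29 and 6 at 30 or more.

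**Figure D2:**
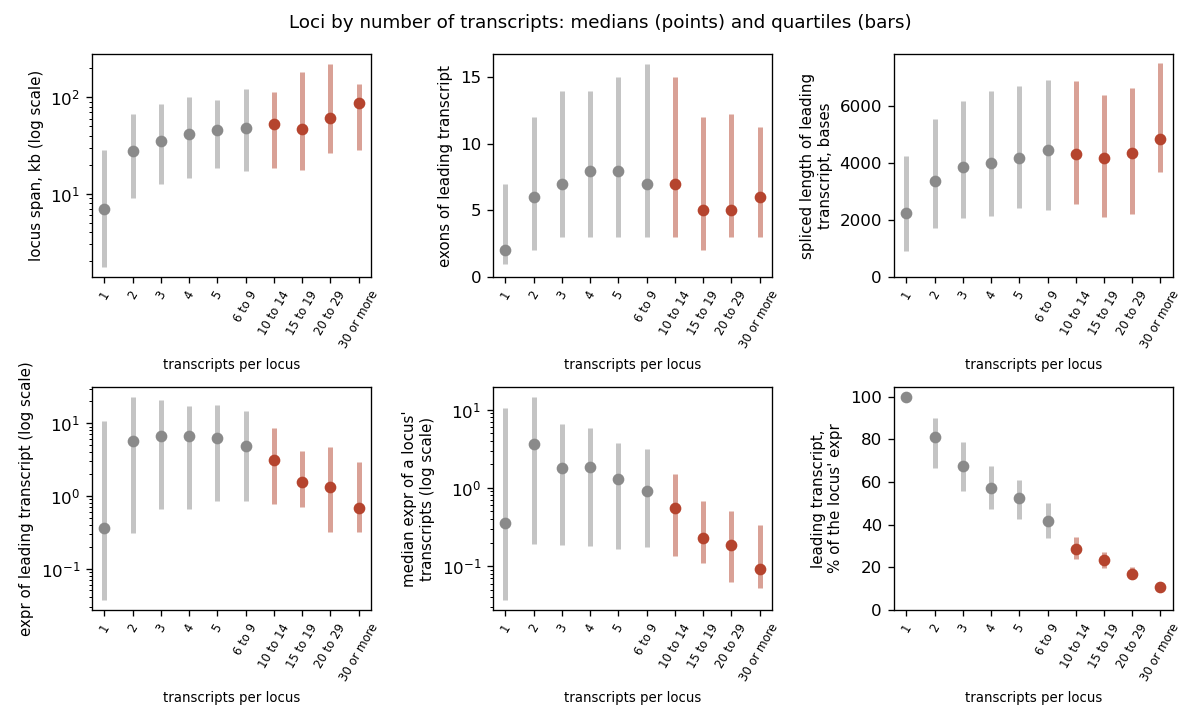
Medians (points) and quartiles (bars) over loci, by number of transcripts per locus (horizontal axes): span in kb, exons and spliced length in bases of the leading transcript, its expression value, the median expression value of the locus' transcripts, and the leading transcript's percentage of the locus' expression value. Red marks 10 or more transcripts, where the median expression value of the leading transcript lay below that of each group with 2 to 9 transcripts.

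The expression attribute of the assembly was spread over many weak transcripts in these loci. It is printed here as the file gives it. Its scale is not stated in the sources used here, and values were compared only within the file. The median over the 9944 transcripts was 0.269 (quartiles 0.081 and 1.12), against 0.356 in loci with 1 transcript and 1.38 in loci with 2 to 9. The ratio to loci with 1 transcript, 0.756, was 0.159 when only those of 2 or more exons were kept, and 0.506 with a limit of 15 in place of 10 transcripts. Summed over the locus, the median was 8.28 (quartiles 2.64 and 26.9), which was 23.3 times that of loci with 1 transcript and 0.881 times that of loci with 2 to 9. Each added transcript raises the sum, which was not corrected for the number that chose the loci. The direction against loci with 1 transcript thus depends on the quantity, since the leading transcript, at a median of 2.04, stood at 5.73 times their value. That sets the highest of 10 or more values against a single value, which was also not corrected for. Against loci with 2 to 9 transcripts the leading transcript stood at 0.337 times.

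No transcript dominated in most of these loci. The leading transcript held a median of 25.1% of the locus' summed expression value (quartiles 19.3% and 31.2%), against 67.1% in loci with 2 to 9 transcripts. It held more than 50% in 2 of the 600 loci, G8368 (57.5%) and G787 (51.1%), which were named after their values were seen. The same was true of 7502 of the 9305 loci with 2 to 9 transcripts (80.6%). In 21 loci it held less than 10%. The leading share is bounded by the number of transcripts that chose the loci, since it cannot be under 50% with 2 transcripts, and its median fell from 81.2% at 2 transcripts to 10.9% at 30 or more. A median of 3 transcripts was needed to reach 50% of the locus' value, and the most was 22, in G918.

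Loci with 10 or more transcripts were most frequent at middle expression values. The summed value has a term for each transcript, so 10 or more transcripts by themselves make the lowest sums less likely. This was not corrected for. When all loci were ranked by summed expression value, none of the 600 lay in the lowest 3 deciles and 15 in the fourth. The share then reached 6.46% (148 of 2292 loci) in the sixth decile, with summed values of 2.30 to 7.11, and was 3.27% in each of the highest 3 deciles, against 2.62% of all loci. By exons of the leading transcript, the share was 1.39% for 1 exon (75 loci), 3.45% for 3 to 4 exons (105 loci) and 5.35% for 20 or more (101 loci). Structures of few exons and of many thus both held loci with 10 or more transcripts. Together the 600 loci held 4.37% of the summed expression value of the assembly, and 2.23% without G12875, which alone made up 50.1% of their sum.

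**Figure D3:**
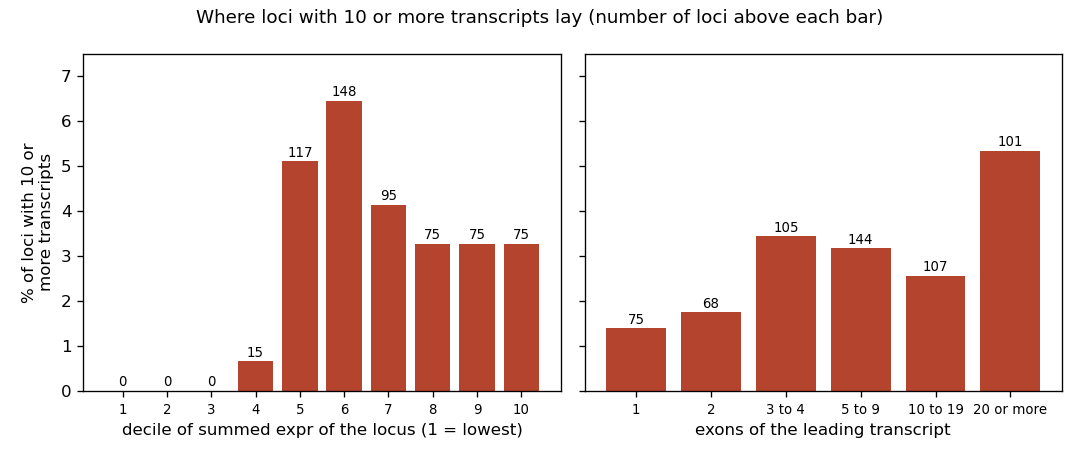
Percentage of loci with 10 or more transcripts (vertical) by decile of the locus' summed expression value and by exons of the leading transcript (horizontal), with the number of such loci above each bar. The share was highest in the sixth decile of expression (6.46%) and at 20 or more exons (5.35%).

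Transcripts of these loci differed in their splicing, in their ends or in both. An intron chain is the ordered set of introns of a transcript, and transcripts that share it differ only in where they start and end. Transcripts of a single exon were given the same empty chain, and so counted as sharing it where a locus had several of them. Of the 9944 transcripts, 4909 (49.4%) shared their chain with another transcript of the locus, against 3303 of 30700 (10.8%) in loci with 2 to 9 transcripts. A transcript with more others in its locus has more chances to share a chain, which was not corrected for. The 600 loci fell towards both extremes. In 264 (44.0%) every transcript had its own chain, in 173 (28.8%) at least 90% of the transcripts shared a chain, and 163 (27.2%) lay between. A single chain stood for all transcripts in 52 loci, of which 17 had only transcripts of a single exon and so no intron. These limits, and the groups by exon number below, were set after the values were seen.

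Loci whose transcripts mostly shared intron chains had few exons. In these 173 loci, where at least 90% of transcripts did, the most exons of a transcript had a median of 4 (quartiles 2 and 6), against 14 (quartiles 8 and 25) where none did. The 173 loci had a median of 15 transcripts, 5 start positions, 6 end positions and 2 chains, and 46 of them (26.6%) still held a retained intron and 30 (17.3%) a skipped exon. The loci with a chain per transcript had a median of 12 transcripts, 3 start positions, 1 end position and 12 chains. Their median summed expression value was 16.4 (quartiles 2.91 and 49.1), against 4.79 (quartiles 2.29 and 11.1) in the 173 loci, and the quartiles of the groups overlapped. The outermost starts of a locus among the 173 lay a median of 1.39 kb apart and its outermost ends 2.05 kb apart. By exons, at least 90% of transcripts shared a chain in 104 of the 173 loci with at most 4 exons, and in 2 of the 129 loci with 20 or more. Part of this follows from the measure, since several single-exon transcripts of a locus count as sharing a chain and few introns leave few ways to differ. Single-exon transcripts occurred in 91 of the 173 loci with at most 4 exons and in 8 of the 129 with 20 or more.

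**Figure D4:**
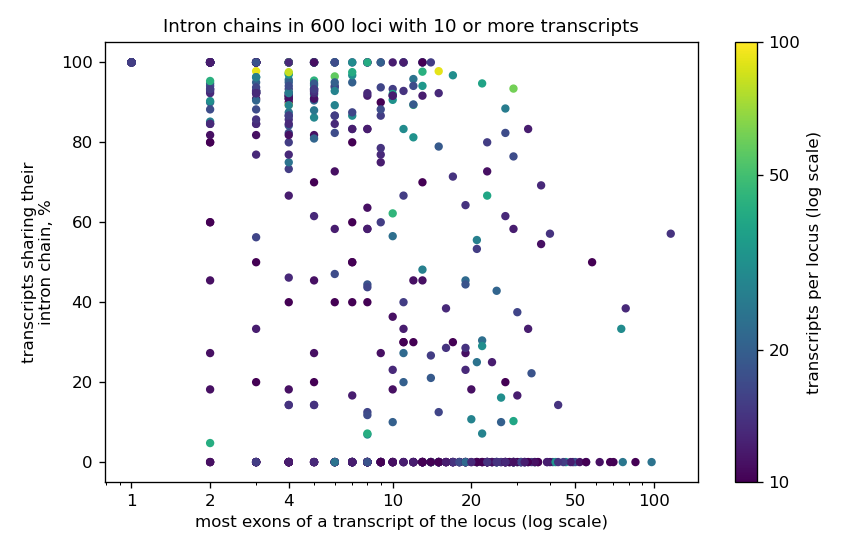
Percentage of a locus' transcripts that share their intron chain with another transcript of the locus (vertical) by the most exons of a transcript (horizontal, log scale), for the 600 loci. Colour gives the number of transcripts on a log scale. Transcripts of a single exon count as sharing a chain where a locus has several of them. Loci of 4 or fewer exons gather at 90% or more (104 of 173) and loci of 20 or more exons at 0% (92 of 129).

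Of the 52 loci with 30 or more transcripts, 29 had at least 90% of their transcripts on a shared chain and 10 had none. G13884 (20:56203519-56332991, minus strand) had the most, 94 transcripts, of 1 to 4 exons and 2921 to 8167 bases. It used 10 start and 22 end positions and 14 chains, with 89.4% of transcripts on a shared chain, and its leading transcript had an expression value of 0.576, 6.94% of the locus' 8.31. The study's list of noncoding transcripts gives transcripts of this locus the predicted name AC004158.3, which it also gives to transcripts of G13882. G14666 (3:68731945-68885258, minus strand) had 91 transcripts of 14 or 15 exons and 7162 to 16925 bases, with 11 starts, 13 ends and 4 chains. G4106 (11:93321106-93337835, plus strand) also had 91, of 2 or 3 exons within 16.7 kb, and most of its span was exonic. G918 (1:79544498-79573559, minus strand) had 82 transcripts of 2 to 4 exons, and its leading transcript held 3.99% of its expression value, the lowest share of the 600 loci. The summed values of these 4 loci, 5.77 to 11.1, lay on both sides of the median of the 600, while their leading transcripts, at 0.230 to 0.576, lay below the median of 2.04.

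G5669 (13:63385969-63400790, minus strand) had a single intron chain. All 58 transcripts had the same 3 introns and 4 exons, and their length ran from 2045 to 8717 bases. They combined 12 start positions with 12 end positions, so 58 of 144 possible combinations were assembled. The 4 starts that 8 or more transcripts used lay within 341 bases of each other. These starts belonged to 37 transcripts, with 82.2% of the locus' summed expression value of 14.6. The 5 ends within 1 kb of the innermost end also belonged to 37 transcripts, with 84.3% of the value. The outermost start lay 5638 bases upstream of the innermost and was used by 3 transcripts with a summed value of 0.289.

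G19398 (7:60294420-60400965, plus strand) had a chain for each transcript. Its 44 transcripts had 44 different chains made from 54 introns, 10 of which were in every transcript that crossed them. They had 10 to 29 exons and 1031 to 6089 bases, with 5 starts and 2 ends. Within the locus 7 exons were skipped by at least 1 transcript and 10 introns were retained. The leading transcript, of 21 exons, held 13.9% of the summed value of 17.1. The locus lay inside G19399 (7:60014780-60403147) on the same strand, a member with 17 transcripts of which 16 had a single exon.

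**Figure D5:**
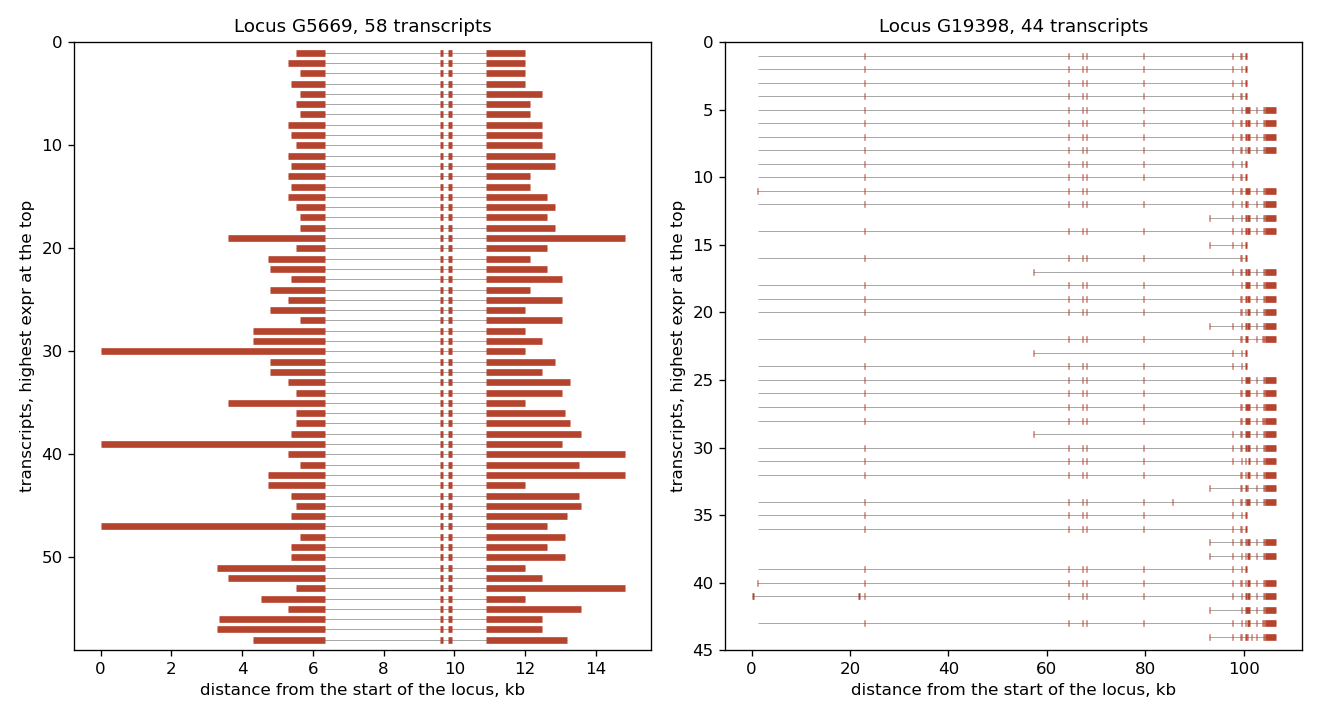
Exons (red) and introns (grey) of all transcripts of G5669 (58 transcripts) and G19398 (44 transcripts), by distance in kb from the start of the locus in the direction of transcription (horizontal), with the highest expression value at the top (vertical). G5669 keeps 3 introns while starts and ends shift. G19398 keeps 2 ends while the internal exons vary.

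The other loci among the 15 with the most transcripts had 42 to 61. G12846 (2:149846589-150241629, plus strand, 61 transcripts, 19 to 29 exons) had 20 start positions, the most of any locus. G13882 (20:56323678-56439520, plus strand, 57 transcripts) started opposite G13884, and the 2 loci overlapped by 9.31 kb at their starts. G14200 (3:9740100-9996843, plus strand, 47 transcripts) had 16 starts and a summed value of 2.46. G10113 (18:23954001-23993519, minus strand, 46 transcripts) and G4834 (12:64650235-64664409, minus strand, 43 transcripts) were made mostly of transcripts of a single exon, 27 and 41 of them. G14520 (3:50438965-50453557, minus strand, 45 transcripts) had 27 chains. G14775 (3:79904314-79968338, minus strand, 44 transcripts) had 10 and G17036 (5:51337689-51427729, plus strand, 43 transcripts) had 5. Over the 15 loci, 10 had at least 90% of transcripts on a shared chain, and the leading transcript held 3.99% to 13.9% of the expression value.

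The loci with the most start positions differed in exon number. After G12846, the loci with the most start positions were G9992 (18:4297020-4380495, plus strand) and G14200 with 16 each, G17998 (6:85605072-85635443, minus strand) with 15 and G14313 (3:32558897-32663523, plus strand) with 14. G9992 had at most 2 exons, G17998 and G14313 at most 4, and G14313 used 2 end positions. G21571 (9:64147390-64266279, minus strand), named after its values were seen, was the opposite case. Its 39 transcripts had 1 start and 33 ends, with 39 chains and a summed value of 140.7.

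Splicing differences were found in most loci with 10 or more transcripts. A skipped exon, an internal exon that another transcript joins across, occurred in 268 (44.7%), and a retained intron, an intron that lies within an exon of another transcript, in 336 (56.0%). An internal exon with alternative donor sites (its 3′ edge) occurred in 194 (32.3%) and one with alternative acceptor sites (its 5′ edge) in 207 (34.5%). In loci with 2 to 9 transcripts these shares were 22.6%, 29.7%, 11.5% and 13.5%. All 4 kinds occurred in 44 loci with 10 or more transcripts (7.33%) and none in 131 (21.8%). More transcripts give more chances for each kind, and the shares were not corrected for this. The share of introns found in every transcript that crossed them had a median of 48.1% in loci with 10 or more transcripts and 77.8% in loci with 2 to 9.

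Several start positions were more common than any of these 4 kinds taken alone. They occurred in 515 loci (85.8%), and several end positions in 443 (73.8%), against 52.0% and 33.4% of loci with 2 to 9 transcripts, again without correction for the number of transcripts. A single start with a single end occurred in 26 loci. Skipped exons grew more common with exon number, from 30 of 173 loci with at most 4 exons (17.3%) to 100 of 129 with 20 or more (77.5%). Several end positions became less common, from 161 of 173 (93.1%) to 59 of 129 (45.7%). Retained introns were found in 39.3% and 64.3% of these 2 groups. G14100 (3:811009-1099191, 13 exons) and G21644 (9:72171431-72719163, 10 exons) had the most skipped exons, and G10345 (18:67166530-67210135, 28 introns) the most retained introns. These 3 were named after their values were seen.

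The 5 widest loci spanned 1305 to 2434 kb, and 0.424% to 0.636% of each was exonic. They were G8162 (15:73641051-76075001, plus strand, 15 transcripts), G22193 (X:30782089-33074752, minus strand, 13 transcripts), G2723 (10:47108630-49213974, plus strand, 28 transcripts), G13404 (20:6033912-7784292, plus strand, 23 transcripts) and G4321 (11:98573331-99878340, minus strand, 14 transcripts). Their longest introns were 249952 to 481479 bases. In G8162 the 15 transcripts ended at the same position and had 30 to 45 exons. In G22193 the leading transcript had 78 exons and 13808 bases, while the median transcript had 18 exons. In G13404 the leading transcript, at 38.2 of a summed 198.7, was a single exon of 667 bases, although the median transcript had 14 exons.

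Loci with the most exons varied little in exon number, with G19760 and G22193 as the exceptions. G804 (1:38342828-38760955, plus strand) had 24 transcripts of 87 to 98 exons, G22742 (X:52939322-53092978, minus strand) 10 of 83 to 85, and G4440 (11:112174046-112405354, minus strand) 25 of 75 or 76. All their transcripts had chains of their own and each of these loci had 1 end position. G19760 (7:125803051-126182645, plus strand) had the transcript of the most exons, 116, with 21741 bases. Its 14 transcripts had a median of 18 exons, and 26.5% of its summed value of 3.06 was in the longest.

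G12875 (2:130161055-130168080, minus strand), also the last of the 15 loci with the most transcripts, stood far above the others of the 600 loci with a summed value of 17178 over 42 transcripts. It had 40 different introns within 7.03 kb, none of them in all transcripts that crossed it, at most 2 exons, and transcripts of 375 to 2264 bases. Its leading transcript had a value of 1839 and its weakest 94.7. The study lists transcripts of this locus as noncoding, some with the name NONHSAT222414.1. G4881 (12:61803044-62006798, minus strand) was next with 914.6 over 11 transcripts of 8 to 15 exons, which shared 1 end position. The study's list of coding transcripts gives it the predicted name CHN1, which encodes chimaerin 1, a GTPase-activating protein for Rac that acts in neuronal wiring. G4589 (11:125061900-125066985, minus strand) had 434.8 over 24 transcripts with 1 start, 24 chains and 15 retained introns. G12696 (2:113562088-113644795, minus strand) had 422.0 over 11 transcripts with 1 start and 7 ends. G11505 (19:43982131-44005210, minus strand) had 357.2 over 12 transcripts with 8 starts. Of the 600 loci, 43 had a summed value over 100.

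Predicted names could be given to 52 of the 600 loci, from lists of the study that are held here only in part, so no share is drawn from them. The names rest on likeness to human sequences, and several loci carry more than 1. Some names also fall on several loci, such as KCNQ1OT1 on G918 and G14317, and HELLPAR on G4608, G5310, G16082 and G17979. A name therefore does not establish which gene a locus is. The following were picked for having a well-known name. G7219 (14:114883382-115058495, minus strand) was named MIR100HG, a host transcript of microRNAs. It had 11 transcripts of 2 to 5 exons and a summed value of 25.2, of which the leading transcript held 37.1%. G9238 (16:65920684-66108728, minus strand), named LINC00511, had 13 transcripts of 2 or 3 exons, and 92.3% of them shared a chain. G10268 (18:65635979-65649728, plus strand), named GABPB1-AS1, had 11 transcripts of 1 to 3 exons from 5 starts. G13677 (20:40117757-40322376, minus strand), named LINC00891, had 10 transcripts with 10 chains and 5 skipped exons. The summed values of the last 3, 0.643 to 0.901, lay below the lower quartile of the 600. G11240 (19:32042676-32053883, minus strand), named POLR2I after a subunit of RNA polymerase II, had 13 transcripts with 1 start, 6 ends and a summed value of 26.8. G4956 (12:84913834-84980295, plus strand), named CYP20A1 after a cytochrome P450 enzyme, had 19 transcripts, 15 of them of a single exon. Transcripts of this locus also appear in the noncoding list, under the name CTC-277H1.6.

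Loci with 10 or more transcripts often shared their ground with other loci. Exonic overlap with a locus on the other strand occurred in 329 (54.8%), against 47.7% with 2 to 9 transcripts and 42.4% with 1. Another locus lay inside the span of 228 (38.0%), against 24.8% and 10.9%. These shares rise with span, which was not corrected for. Conversely, 49 (8.17%) lay inside another locus, against 12.95% with 2 to 9 transcripts and 30.0% with 1. A wider locus fits less easily inside another, which was not corrected for either. A locus of the other strand whose outermost start lay within 1 kb upstream of the outermost start was found for 41 (6.83%), against 9.70% and 8.24%. Pairs that overlap at their starts, such as G13884 and G13882, are missed by this measure. It therefore cannot tell whether divergent starts were more or less frequent. Members overlapped each other in 12 pairs, 10 of them on opposite strands.

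The 600 loci lay on all 23 sequences with loci, 287 on the plus and 313 on the minus strand. On the numbered chromosomes and X their share of loci ran from 1.66% on chromosome 16 to 4.28% on chromosome 9. Chromosome Y held 2 of 33 loci and the mitochondrial genome 1 of 11. The mitochondrial locus, G22178 (MT:1-11465, minus strand), had 17 transcripts of 1 to 8 exons, with 28 introns and a summed value of 334.9. Vertebrate mitochondrial genes are known to have no introns. Exons of 5 loci on the plus strand overlapped it, and single-transcript loci of the mitochondrial plus strand had values of up to 33366. Leaving the mitochondrial genome out changed the ratio of median spans from 8.16 to 8.15.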

How the data were processed

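RNA of 416 samples was sequenced. Per the paper's methods, the authors mapped reads to Mmul 8.0.1 with HISAT2 (version 2.0.5 in the submitters' processing notes), assembled each sample with StringTie and merged all samples with TACO at a minimum expression of 5.5. The deposited assembly gives, for each transcript, exon coordinates and an expression attribute, used here as a score without a stated unit. In it, 74.8% of transcripts lie under 5.5, and how it relates to that filter is not given in the sources used here. The file holds no read counts, so the depth behind a locus is unknown.

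Loci were grouped by gene identifier and described with Python 3.11.15, pandas 2.3.3 and scipy 1.17.1, after tests on a simulated assembly. No filter was applied. The loci named were the 15 with the most transcripts, the 5 widest, the 5 of highest summed expression value, the 5 with the most exons of a transcript, the 5 with the most starts and 2 on each side of the limit of 10. Any others are said to be chosen later. The limit and measures were chosen with earlier results of these data known. Alternatives were other limits and subsets of transcripts and loci. Gene counts, gene lists and 33 ATAC-seq samples were not used, since Ensembl genes could not be placed on loci here.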

Additional observations from a re-analysis of the deposited data

How the results depend on the processing

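Limits are that the assembly pools all animals and regions, carries no read depth, and depends on how starts and ends were assembled, which could not be repeated here. The count test across brain regions and the gene lists were not run, because genes of the count table could not be placed on loci, and markers of the tissue could not be checked for the same reason. No paired analysis was possible because the assembly has no value per animal. Each value below is the ratio of the median of loci with 10 or more transcripts to the other median, against loci with 1 transcript unless said, in the order span, exons, spliced length and expression value. As reported, the ratios were 8.16, 2.50, 2.16 and 0.756, and 1.63, 0.714, 1.23 and 0.195 against loci with 2 to 9. Ratios given below are those outside an interval of the reported ratio or past 1 from it. Its ends come from dividing the opposite ends of the 95% binomial intervals of the medians, over loci or transcripts. It is thus not itself a 95% interval of the ratio. For exons, length and expression the intervals of the medians treat transcripts of the same locus as independent and are too narrow. With single-transcript loci of 2 or more exons, against all transcripts of loci with 10 or more, they were 3.28, 1, 1.85 and 0.159. With a limit of 15 transcripts (240 loci), expression was 0.506, and against loci with 2 to 9 length was 1.27 and expression 0.130. With transcripts of an expression value of at least 11, only 5 loci remained, and the ratios turned to 0.437, 0.25, 0.433 and 3.99, and against 2 to 9 to 0.314, 3.86 for expression and 0.396 for length, with exons at 0.222. G12875 gave 42 of the 86 transcripts of these 5 loci. Here and with the other minimum values, loci were regrouped by the number of transcripts kept. With transcripts of at least 0.1 of the leading value (306 loci), exons were 1.67, length 1.95 and expression 0.490, and against 2 to 9 length was 1.17 and expression 0.151. With leading transcripts alone, span was 4.12, length 1.96 and expression turned to 5.73, and against 2 to 9 they were 1.20, 1.17 and 0.337. The leading value is the highest of its locus and was not corrected for the number of transcripts. Chosen after seeing the data, a minimum value of 0.1 (421 loci) gave 4.72, 1.75, 1.79 and 0.230, and against 2 to 9 exons of 0.875, length of 1.16 and expression of 0.281. With numbered chromosomes and X alone, or without the mitochondrial genome, no ratio left its interval. The share of transcripts on a shared chain, 49.4% as reported, was 60.8% with the limit of 15, 58.1% with at least 0.1 of the leading value, 42.9% with the minimum of 0.1 and 4.65% with that of 11. The causes were not tested.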
